A study of Drosophila melanogaster with 8 samples.

Results

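Antimicrobial peptide transcripts were examined in adult Drosophila heads as a set of 10 named genes, taken by symbol from the 15240 genes of the deposited table. The set holds the defensin gene Def, the drosomycin genes Drs and Drsl5, the diptericin genes Dpt and DptB, the attacin genes AttA and AttC, the metchnikowin gene Mtk, the drosocin gene Dro and the cecropin gene CecA1. All 10 were found. RNA came from whole heads, about 90 per library, of socially naive adults aged 6 days. The flies were of Canton-S (CantonS) or of Bully, a hyper-aggressive line derived from it, and each line was reared at 19C or at 25C. The 4 groups (Bully 19C, Bully 25C, CantonS 19C and CantonS 25C) had 2 libraries each, described as independent biological replicates. No infection or other immune challenge is named in the labels, and the sex of the flies is not given in the sources used here. Since the columns are not numbered by replicate, each group's libraries are named a and b here, which pairs nothing across groups.

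Antimicrobial peptides are short secreted proteins that kill bacteria and fungi. In flies the fat body makes most of them after infection, and epithelia and blood cells make some. Their genes are switched on through 2 signalling routes, Toll and Imd, that end in transcription factors of the NF-kappaB family. Drosomycin is the usual readout of Toll, while diptericins, attacins, cecropins and drosocin are usual readouts of Imd. Metchnikowin responds to both routes, and so does defensin. Because whole heads were sequenced, fewer cells of a type and less RNA per cell cannot be told apart in any value below.

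Values are RPKM, reads scaled to gene length and to library size. This puts genes on a common scale, except where reads are divided between near-identical copies. Between libraries a shift remained, since median-of-ratios rescaling lowered CantonS 19C b by 0.15 (log2). Effective library sizes ran from 47.6 to 117.8 M reads (M, mega). The head markers were in place: the summed level of 8 photoreceptor genes was 6345 to 10891 RPKM, and 6 of 8 midgut markers and all 4 ovary follicle markers lay below 1 RPKM in every library. The midgut markers that did not were Amy-p, at 26.0 to 60.8 RPKM, and Mal-A1, at 0.39 to 2.03 RPKM. Tests used limma on log2(RPKM + 0.5) over the 8480 genes whose mean reached 1 RPKM. The 10 members all reached it, but Dro lay below 1 RPKM in 5 libraries, Dpt and Mtk in 2 each and DptB in 1. Over the 6 libraries other than Bully 25C a and CantonS 19C a, Dro averaged 0.855 RPKM, so it reached the filter only through those 2. Dpt, Mtk and DptB averaged 1.38, 1.47 and 2.33 RPKM over the same 6. A difference was called at an adjusted p below 0.05. Differences are on the log2(RPKM + 0.5) scale, which understates the change of low genes. On the RPKM scale, Bully 25C a stood apart from the other Bully libraries in 7 of the 10 genes. CantonS 19C a stood apart from the other CantonS libraries in 4 of these 7. Differences of single genes that rest on these 2 libraries are given with and without them. Medians over the 10 genes are given with them only.

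Drsl5, a drosomycin-like gene, was the most abundant of the 10 in all 8 libraries, at 42.3 to 156.3 RPKM with a median of 115.9. It made up 41.9% of the summed level of the 10 genes in Bully 25C a and 45.8% in CantonS 19C a. In the other 6 libraries it made up 57.4% to 89.0%. The other 9 genes were low in those 6 libraries, from 0.23 RPKM in Mtk to 11.6 RPKM in Def. Drs itself, the founding drosomycin gene, was at 1.30 to 4.08 RPKM over the 8 libraries. Summed over the 9 genes other than Drsl5, the level was 173.4 RPKM in Bully 25C a and 126.3 in CantonS 19C a, against 18.3 to 38.9 in the rest.

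**Figure D1:**
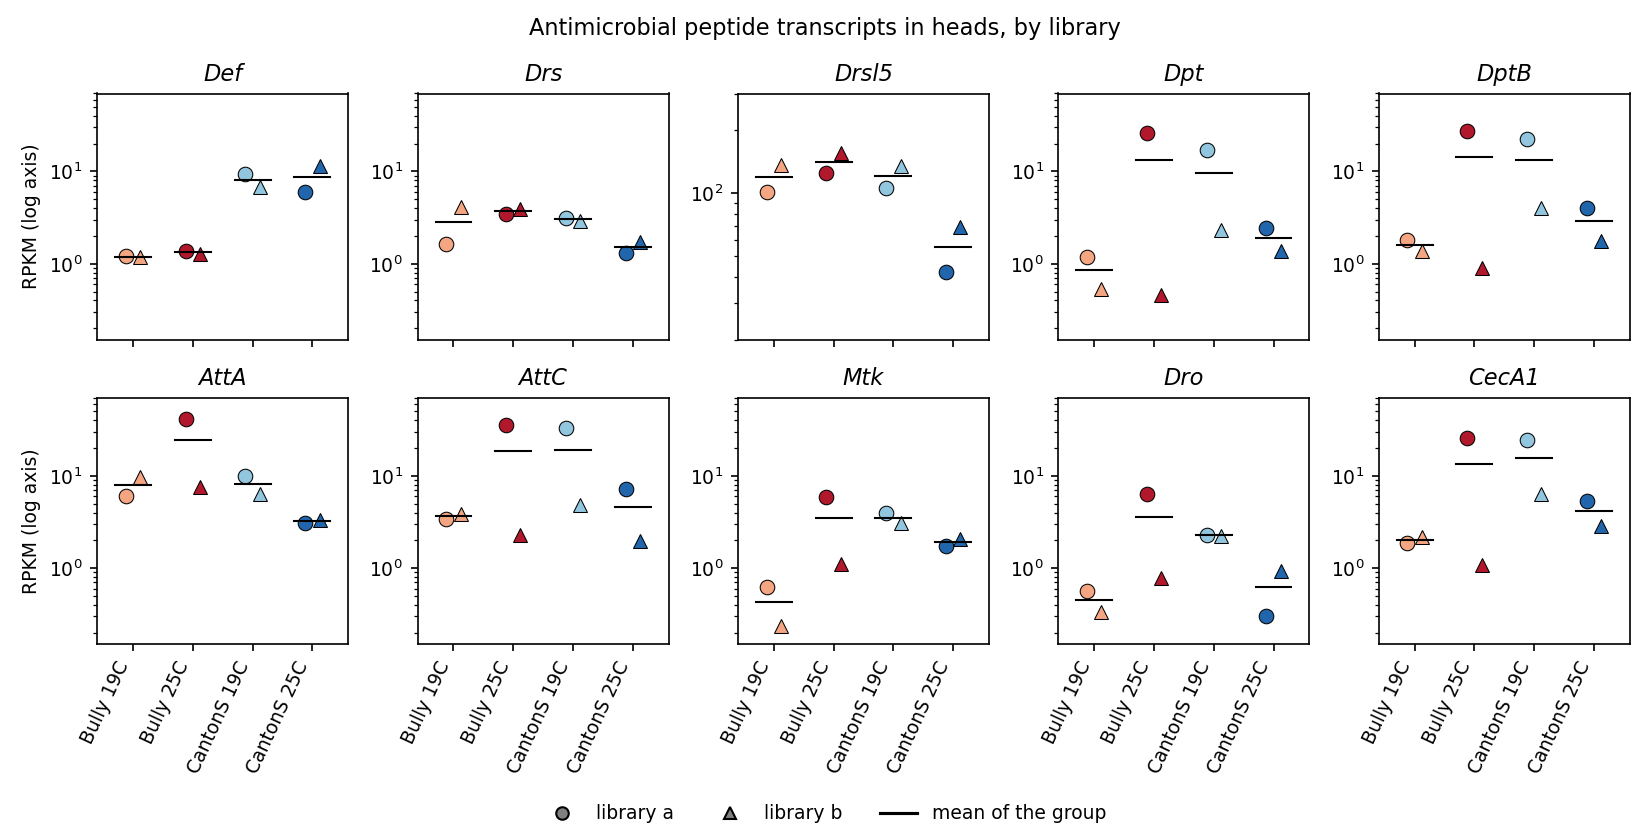
RPKM (log axis) of the 10 antimicrobial peptide genes in each of the 8 libraries, with circles for library a, triangles for library b and a line at the mean of each group (n = 2), the Drsl5 panel having its own scale. Def is low in all 4 Bully libraries, Drsl5 is lowest in the 2 CantonS 25C libraries, and 7 genes are highest in Bully 25C a, at up to 41.7 RPKM in AttA.

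Def, which encodes an insect defensin active mainly against Gram-positive bacteria, separated the lines. The Bully libraries held 1.20 and 1.19 RPKM at 19C and 1.39 and 1.28 RPKM at 25C. The CantonS libraries held 9.39 and 6.79 RPKM at 19C and 5.96 and 11.55 RPKM at 25C. Every Bully library lay below every CantonS library. The values rested on 55, 38, 55 and 43 reads in the Bully libraries and on 403, 319, 113 and 415 in the CantonS libraries, in the same order. The 2 libraries of each Bully group were close together, and the spread was wider in CantonS 25C (8.75 ± 3.96 RPKM, SD) than in CantonS 19C (8.09 ± 1.84 RPKM).

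At 25C the mean of Def was 6.56-fold lower in Bully (1.33 ± 0.08 against 8.75 ± 3.96 RPKM, SD, n = 2 each), and the log2 difference was -2.27 (SE 0.27, limma adjusted p = 0.0035). At 19C it was 6.76-fold lower (1.20 ± 0.01 against 8.09 ± 1.84 RPKM), with a log2 difference of -2.32 (SE 0.27, limma adjusted p = 0.00194). Averaged over temperatures the difference was -2.29 (SE 0.19, adjusted p = 1.87e-04). The interaction of line and temperature was 0.06 (SE 0.38, adjusted p = 0.942). All 3 line calls held with any single library left out. The call at 25C was lost when both libraries that stand apart were left out (-2.31, adjusted p = 0.0603), which leaves 1 library in each of 2 groups. Rearing temperature moved Def by 0.06 in CantonS (SE 0.27, adjusted p = 0.907) and by 0.11 in Bully (SE 0.27, adjusted p = 1 after rounding), neither of which passed.

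Markers of the fat body, the main source of defensin in infected flies, are given beside the Def difference. Of the 7 fat body markers tested, 3 were higher in Bully at 25C (Yp3, Lsp2 and Lsp1beta), 3 at 19C (fit, Lsp2 and Lsp1beta) and 0 lower at either. Of all genes, 1.86% were called higher and 1.17% lower at 25C, and 3.44% and 8.07% at 19C. The markers did not all move together. The mean of Yp1 was 1.38 RPKM in Bully against 2.69 in CantonS at 19C, and 1.67 against 1.01 at 25C. That of Rfabg was 204 against 170 RPKM at 19C, and 177 against 207 at 25C. The summed level of the 9 listed markers was 442 and 476 RPKM in Bully 25C against 405 and 324 in CantonS 25C. It was 896 and 858 RPKM in Bully 19C against 369 and 458 in CantonS 19C. Lsp2, to and Rfabg carried much of these sums. Lsp2 and Lsp1beta are larval serum protein genes, and Fbp1, a larval fat body gene, stayed below 0.1 RPKM throughout. Hemocyte markers, which mark blood cells, were called higher in Bully at 19C in 5 of 8 tested and in 0 at 25C, against the same shares of all genes. The part of fat body or blood cells in the Def difference was not tested.

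The genes outside the set whose profile lay closest to that of Def were CG3397, CG3984 and CG10257. Likeness was the root mean square difference of centred log2 values over the 8 libraries, which was 0.20, 0.20 and 0.31. CG3984 was at 1.75 to 2.18 RPKM in the Bully libraries and at 7.73 to 15.2 RPKM in the CantonS libraries. All 3 were lower in Bully at 25C, by limma differences of -2.63, -2.22 and -1.87 (adjusted p = 4.39e-04, 0.0044 and 1.76e-04). They were also lower at 19C, with differences of -2.14, -2.21 and -2.30 (adjusted p = 8.94e-04, 0.00263 and 4.32e-05). These 3 genes were picked for their likeness to Def, so their calls are a description.

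Drsl5 showed another pattern, a low level in CantonS 25C alone. The CantonS libraries held 106.6 and 135.8 RPKM at 19C but 42.3 and 68.8 RPKM at 25C. The Bully libraries held 102.1 and 136.7 RPKM at 19C and 125.1 and 156.3 RPKM at 25C. The CantonS 25C libraries did not overlap with any other group, and the other 3 groups overlapped with each other. At 25C the mean was 2.53-fold higher in Bully (140.7 ± 22.1 against 55.5 ± 18.7 RPKM, SD, n = 2 each), with a log2 difference of 1.37 (SE 0.26, limma adjusted p = 0.0295). At 19C the difference was -0.03 (SE 0.26, adjusted p = 0.961). Within CantonS, Drsl5 was lower at 25C than at 19C (-1.15, SE 0.26, adjusted p = 0.0453), while in Bully the difference was 0.24 (SE 0.26, adjusted p = 1 after rounding). The interaction itself was 1.39 (SE 0.37) and did not pass (adjusted p = 0.105).

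Both calls of Drsl5 depended on single libraries. Leaving out 1 of 3 libraries ended the line call of Drsl5 at 25C, with an adjusted p of 0.112 for Bully 25C a, 0.22 for Bully 25C b and 0.17 for CantonS 25C a. It was also lost with no filter on low values (adjusted p = 0.0773) and in a fit of the 25C groups alone (0.0592), in which Drs passed instead (0.0225). Of the 8 fits that each left out a library, the temperature call in CantonS passed in 2 (without CantonS 19C a or CantonS 25C b), and in the other 6 the adjusted p was 0.0733 to 0.245. It was also lost after rescaling the libraries by the median of ratios (-1.02, adjusted p = 0.0725). CantonS 25C a was also the smallest library, with 732 reads in Drsl5 against 2255 to 5820 in the others.

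Drs, the antifungal peptide gene usually read as the output of Toll, was lowest in the same group. The CantonS libraries held 3.12 and 2.94 RPKM at 19C and 1.30 and 1.72 RPKM at 25C. The Bully libraries held 1.64 and 4.08 RPKM at 19C and 3.49 and 3.96 RPKM at 25C. The lower Bully 19C library lay within the range of CantonS 25C. The line difference at 25C was 1.07 (SE 0.30) and did not pass (adjusted p = 0.11). It passed without either Bully 19C library, but neither enters this difference. Those fits only drop the gap between the Bully 19C libraries from the spread estimated over the 4 groups. At 19C the line difference was -0.17 (SE 0.30, adjusted p = 0.733). Drsl4, a further drosomycin-like gene and the neighbour of Drsl5 in the reference annotation, was at 24.0 to 45.2 RPKM and was lower at 25C than at 19C in CantonS (-0.72, SE 0.14, adjusted p = 0.0411). This call of Drsl4 was lost in 6 of the 8 fits that each left out a library, with an adjusted p of 0.0696 to 0.224. It passed without CantonS 19C a or CantonS 25C b. It was also lost after median-of-ratios rescaling (-0.60, adjusted p = 0.0654).

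The remaining 7 genes, Dpt, DptB, AttA, AttC, Mtk, Dro and CecA1, shared their 2 highest libraries. In each of them Bully 25C a was the highest of the 8 and CantonS 19C a the second. Of all 8480 genes tested, 1.18% had these 2 libraries as their highest 2. Dro was among the genes tested only through these 2 libraries. Dpt, whose product acts against Gram-negative bacteria, was at 26.1 RPKM in Bully 25C a and 17.2 RPKM in CantonS 19C a. Its level was 0.45 RPKM in Bully 25C b and 2.29 RPKM in CantonS 19C b. In the other 4 libraries it was at 1.18 and 0.53 RPKM (Bully 19C) and 2.46 and 1.39 RPKM (CantonS 25C). Bully 25C therefore held both the highest and the lowest value of this gene, 57.4-fold apart, on 1283 and 19 reads.

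DptB, the neighbour of Dpt in the reference annotation, was at 27.5 RPKM in Bully 25C a and 22.5 RPKM in CantonS 19C a. It was at 0.90 to 4.07 RPKM in the other 6 libraries. AttC, an attacin gene, was at 35.2 and 33.1 RPKM in those 2 libraries and at 1.99 to 7.13 RPKM elsewhere. CecA1, which encodes a cecropin that disrupts bacterial membranes, was at 25.8 and 24.7 RPKM and at 1.08 to 6.28 RPKM elsewhere. In these 4 genes the 2 libraries stood well above the rest.

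AttA was at 41.7 RPKM in Bully 25C a but at 10.1 RPKM in CantonS 19C a, close to the 9.80 RPKM of Bully 19C b. Mtk, an antifungal peptide gene, was at 5.87 and 3.92 RPKM, and CantonS 19C b followed at 3.07 RPKM. Dro, which encodes a proline-rich peptide and neighbours AttA, was at 6.38 RPKM in Bully 25C a and 2.29 RPKM in CantonS 19C a, with CantonS 19C b at 2.22 RPKM. In these 3 genes Bully 25C a stood apart from its group, and CantonS 19C a did not.

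Gaps of this size between 2 libraries of a group were rare. In Bully 25C, 21 of the 8480 genes (0.248%) differed at least 4-fold between a and b on the log2(RPKM + 0.5) scale, and 6 of them were members, namely Dpt, DptB, AttA, AttC, Dro and CecA1. Mtk lay just under, at a log2 difference of 1.99. Dro reached the filter on low values only through Bully 25C a and CantonS 19C a. In CantonS 19C it was 12 genes (0.142%), with the 3 members Dpt, DptB and AttC. In Bully 19C 6 genes (0.0708%) and in CantonS 25C 5 genes (0.0590%) differed that much, with 0 members in each. The genes at least 4-fold higher in library a of both Bully 25C and CantonS 19C numbered 3 (0.0354%), and they were Dpt, DptB and AttC.

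**Figure D2:**
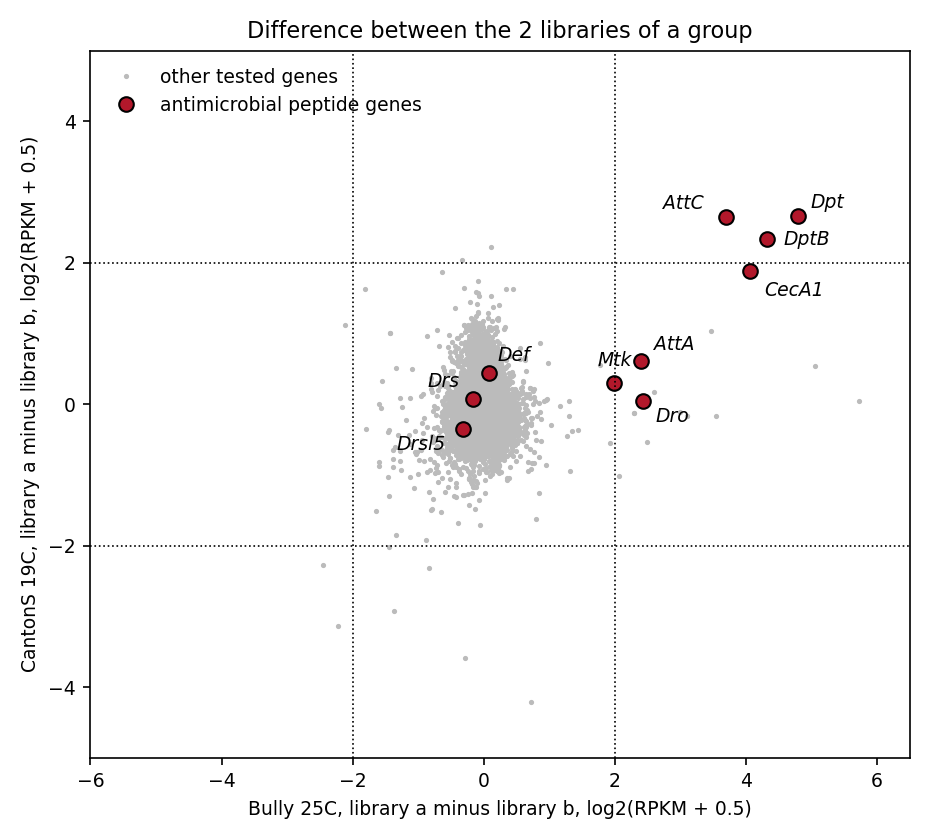
Difference between library a and library b, on log2(RPKM + 0.5), in Bully 25C (horizontal) and CantonS 19C (vertical) for every tested gene, with dotted lines at 4-fold. Dpt, DptB and AttC lie alone in the upper right corner, while Def, Drs and Drsl5 lie among the other genes.

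The summed levels of cell type and pathway lists are given beside these 2 libraries. The summed level of 21 Imd pathway genes was 306 RPKM in Bully 25C a against 288 in b, and 296 in CantonS 19C a against 347 in b. That of 18 Toll pathway genes was 245 against 229 RPKM and 223 against 258 RPKM. Fat body markers summed to 442 against 476 RPKM and 369 against 458 RPKM. Hemocyte markers summed to 89.8 against 68.3 RPKM and 44.5 against 48.5 RPKM, and midgut markers to 44.0 against 39.8 RPKM and 35.2 against 62.9 RPKM. In CantonS 19C all 5 sums were lower in library a, the one with the high peptide transcripts, but the median of all genes was lower there too, by a log2 difference of -0.12. The neuron markers went the other way, at 311 RPKM in a against 267 in b, and were at 345 against 397 RPKM in Bully 25C. Within the Imd list, ben, eff and Uev1A carried much of the sum. The midgut sums were almost wholly Amy-p, at 43.6 against 39.2 RPKM in Bully 25C and 34.4 against 60.8 RPKM in CantonS 19C. The Imd regulator pirk was at 1.21 RPKM in Bully 25C a against 0.70 in b, and the recognition protein gene PGRP-SB1 at 37.7 against 26.0 RPKM. In CantonS 19C pirk was at 1.56 RPKM in a against 1.35 in b, while PGRP-SB1 was lower in a, at 51.6 against 54.3 RPKM. The part of the pathways or cell types in the 2 libraries' values was not tested.

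Paralogs outside the set were also highest in these 2 libraries. AttB reached 26.5 RPKM in Bully 25C a. Both CantonS 19C libraries followed with 17.6 and 15.6 RPKM, and the other 5 had 2.72 to 7.08 RPKM. CecA2 was at 33.4 and 22.4 RPKM in the 2 libraries and at 2.55 to 10.8 RPKM elsewhere. These were also the genes closest in profile to Dpt and CecA1, CecA2 first (root mean square difference 0.67 and 0.40) and AttB second (0.94 and 0.65). The third was desat2 for Dpt (1.21) and CG4500 for CecA1 (1.14). desat2, a fatty acid desaturase gene whose activity is known to differ between natural strains, was at 21.7 RPKM in Bully 25C a, with 0.166 to 0.783 RPKM in the remaining 7 libraries. Whether the flies of Bully 25C a differed from those of b in strain background or immune state was not tested. The labels name no such difference. Closest to AttA were the small heat shock gene Hsp23 (0.53) and the overlapping genes CG10332 and IM18 (0.59 each). AttA and AttB, and CecA1 and CecA2, are near-identical pairs, and how the authors' counting divided reads between the copies is not given in the sources used here. The remaining listed peptide genes apart from Drsl4 (AttD, CecB, CecC, Drsl1, Drsl2, Drsl3, Drsl6 and Anp) lay below 1 RPKM in every library. Among the 3 listed paralogs that were tested, 0 were called between the lines at 25C or 19C, with 0 and 2 at an unadjusted p below 0.05, as had 16.9% and 31.0% of all genes.

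Between the lines at 25C, 1 of the 10 genes was called higher in Bully (Drsl5) and 1 lower (Def), against a background of 3.03% of all genes called (1.86% higher and 1.17% lower). The libraries of the groups did not overlap in 4 members (Def, Drs, Drsl5 and AttA), against 51.7% of all genes. The median difference of the 10 was 1.08, against 0.05 over all genes. This median includes Bully 25C a, without which several members changed direction (below). AttA had the highest value of the 10, at 2.31, without passing (SE 0.63, adjusted p = 0.106). For Dpt (1.09, SE 1.36), DptB (0.95, SE 1.23), AttC (1.19, SE 1.18) and CecA1 (0.54, SE 1.11) the error was about as large as the difference or larger, with adjusted p from 0.646 to 0.846.

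Without Bully 25C a the direction at 25C turned in 5 genes. Dpt was then at -1.31, DptB at -1.21, AttC at -0.65, Mtk at -0.57 and CecA1 at -1.49. AttA was reduced to 1.11 and Dro to 0.25. Without that library and CantonS 19C a these values were the same, and 0 members were called at 25C, Def at adjusted p = 0.0603 and Drsl5 at 0.104. With Bully 25C b left out instead, Dpt was at 3.49 and DptB at 3.12. AttA (3.51, adjusted p = 0.00422) and Dro (2.68, adjusted p = 0.013) then passed, each resting on Bully 25C a as the lone library of its group.

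Between the lines at 19C, Def and Mtk were called lower in Bully and 0 members higher, against 11.5% of all genes called (3.44% higher and 8.07% lower). The groups did not overlap in 7 members, against 60.0% of all genes. The median difference was -1.92, against -0.05 over all genes. This median includes CantonS 19C a, without which several members had smaller differences (below). Mtk was at 0.62 and 0.23 RPKM in Bully 19C, on 19 and 5 reads, and at 3.92 and 3.07 RPKM in CantonS 19C, on 113 and 97 reads. The CantonS libraries lay well above, and the log2 difference was -2.13 (SE 0.52, limma adjusted p = 0.0362). This call was lost without any 1 of the 19C libraries (adjusted p from 0.0819 to 0.197) or of the CantonS 25C libraries (0.0516), without the filter on low values (0.0845) and with a robust prior (0.0816). The call stood without both libraries that stand apart (-1.98), but that fit took its spread from Bully 19C and CantonS 25C alone.

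Dpt, DptB, AttC and CecA1 had differences of -2.42, -2.29, -1.70 and -2.37 at 19C, and 0 of them passed (SE 1.11 to 1.36, adjusted p from 0.187 to 0.357). Without CantonS 19C a the differences were -1.09, -1.12, -0.38 and -1.42. Dro was at 0.56 and 0.33 RPKM in Bully 19C and at 2.29 and 2.22 RPKM in CantonS 19C (-1.55, SE 0.64, adjusted p = 0.142). The groups of Dro did not overlap, and its difference at 19C did not rest on CantonS 19C a. It passed without either library of Bully 25C, but neither enters this difference, which stayed at -1.55. Those fits only drop the gap between these libraries (6.38 against 0.78 RPKM) from the spread estimated over the 4 groups. Without both libraries that stand apart, Def, Mtk, Dro and CecA1 were called lower in Bully at 19C. That fit took its spread from Bully 19C and CantonS 25C alone, since the other groups kept 1 library each. AttA was at 5.97 and 9.80 RPKM in Bully 19C and at 10.1 and 6.39 RPKM in CantonS 19C, and these groups overlapped.

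**Figure D3:**
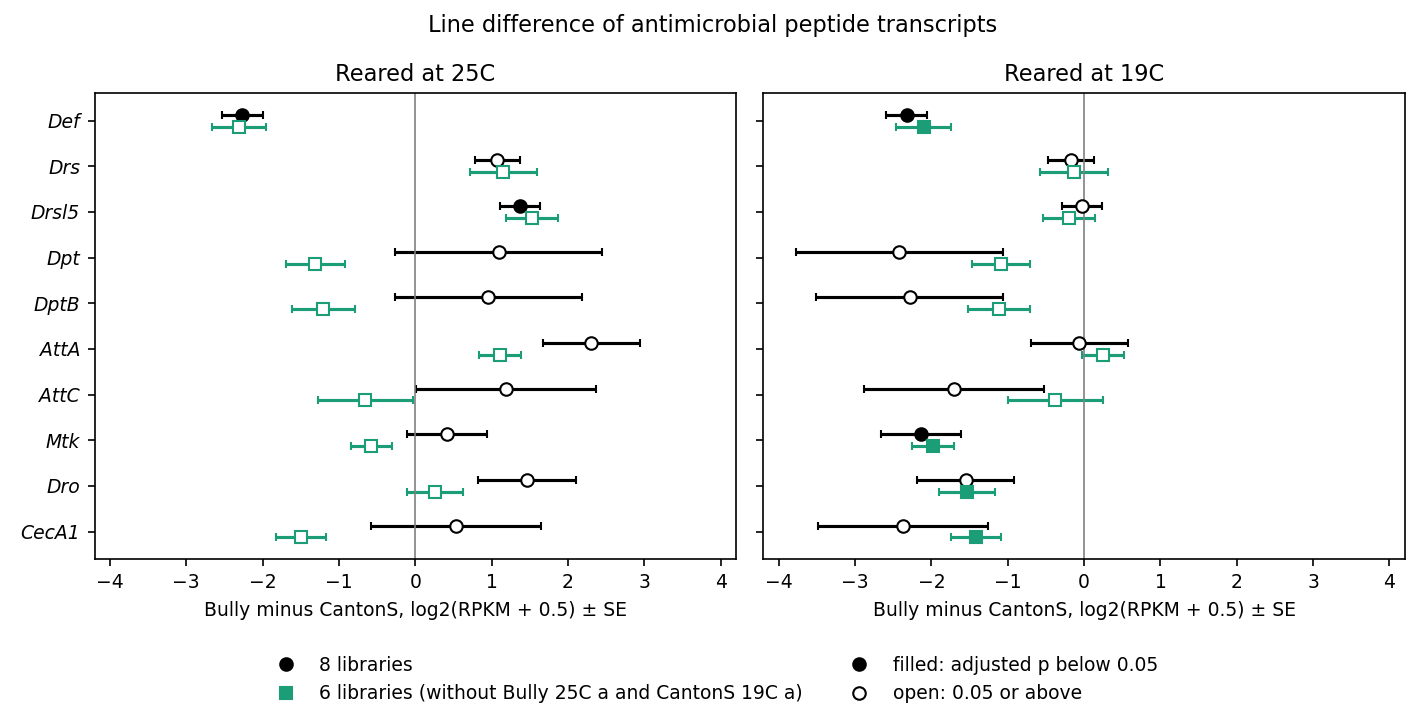
Bully minus CantonS on log2(RPKM + 0.5) for the 10 genes at 25C (left) and 19C (right), with SE bars, from all 8 libraries (circles) and without Bully 25C a and CantonS 19C a (squares). Filled symbols have an adjusted p below 0.05. Def stays between -2.32 and -2.10, while Dpt, DptB, AttC, Mtk and CecA1 change sign at 25C.

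Averaged over temperatures, 1 of the 10 genes was called between the lines, Def, against 8.79% of all genes (4.38% higher and 4.41% lower). It was also the single member whose 4 Bully and 4 CantonS libraries did not overlap, as for 13.4% of all genes.

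The temperature comparisons called 1 member in CantonS, Drsl5, against 6.42% of all genes (1.06% higher and 5.35% lower), and 0 in Bully, against 0.0236%. In Bully 2 members and 3.21% of all genes had an unadjusted p below 0.05. The median difference of the 10 genes, 25C against 19C, was -1.28 in CantonS and 1.31 in Bully, against -0.11 and 0.02 over all genes. Both medians of the 10 include the libraries that stand apart, and the values of several members shrank or turned without them (below). The groups did not overlap in 6 members in CantonS and in 3 in Bully, against 55.5% and 41.7% of all genes. In CantonS 9 members had lower values at 25C (from -0.73 in Mtk to -1.66 in DptB), and Def did not (0.06). Without CantonS 19C a the CantonS values were -0.24 in Dpt, -0.31 in AttC, -0.49 in DptB and -0.61 in CecA1. In Bully all 10 had higher values at 25C, from 0.11 in Def to 1.94 in Dpt. Without Bully 25C a the Bully values of AttA, AttC, CecA1, Dpt and DptB were -0.03 to -0.68.

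Averaged over lines, 0 members were called between the temperatures (background 0.0825%, of which 0.0118% higher and 0.0708% lower), with 1 member and 11.9% of all genes at an unadjusted p below 0.05. The interaction, the line difference at 25C minus that at 19C, called 0 of the 10 genes and 0 of all genes by limma, with 5 members and 23.8% of all genes at an unadjusted p below 0.05. Its values were positive in all 10, from 0.06 in Def to 3.51 in Dpt (SE 1.92, adjusted p = 0.292). Without both libraries that stand apart, the interaction was negative in AttC, CecA1, Def, Dpt and DptB (-0.27 to -0.07). It was then 1.79 in Dro and 1.41 in Mtk.

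Within each rearing temperature, genes upstream of the peptides were called between the lines at about the share of all genes. Averaged over temperatures, 1 of 21 Imd genes (4.76%) and 3 of 18 Toll genes (16.7%) were called, against 8.79% of all genes. Of 21 Imd pathway genes 0 were called between the lines at 25C, where 3.03% of all genes were, and 2 (9.52%) were lower in Bully at 19C, where 11.5% of all genes were. These were PGRP-SC2, a peptidoglycan-cleaving recognition protein (-0.90, SE 0.20, adjusted p = 0.027), and BG4, the adaptor also named Fadd (-0.49, SE 0.13, adjusted p = 0.0421). At 25C 2 of the 21 had an unadjusted p below 0.05, as had 16.9% of all genes. The transcription factor gene Rel, the end point of Imd, was at 8.78 to 14.5 RPKM in the 8 libraries. It was at 11.8 RPKM in Bully 25C a against 10.3 in b. In CantonS 19C a it was at 8.78 RPKM, its lowest value, against 13.6 in b. The relation of Rel to the diptericin values was not tested.

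Of 18 Toll pathway genes 0 were called at 25C, with 4 at an unadjusted p below 0.05, as had 16.9% of all genes. At 19C 2 (11.1%) were called, again near the 11.5% of all genes. There PGRP-SD, a peptidoglycan recognition protein, was lower in Bully (-1.01, SE 0.21, adjusted p = 0.0223). It was at 8.94 and 8.84 RPKM there and at 18.4 and 18.5 RPKM in CantonS 19C. Dif, the NF-kappaB factor of Toll in adults, was higher in Bully at 19C (0.47, SE 0.12, adjusted p = 0.0381). With 1 library left out in turn, the 19C calls of PGRP-SC2 and PGRP-SD were lost in 3 of 8 fits (without CantonS 19C b or either of the Bully 19C libraries). Those of BG4 and Dif were lost in these 3 and without either Bully 25C library, 5 of 8 in all. The median line differences of the Imd list were 0.02 at 25C and -0.03 at 19C, and those of the Toll list 0.16 and 0.08.

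Among 9 immune induced IM peptide genes, Toll outputs in large part, 2 were called higher and 1 lower in Bully at 25C. At 19C 0 were called higher and 3 lower. Of all genes, 3.03% were called at 25C (1.86% higher and 1.17% lower) and 11.5% at 19C (3.44% higher and 8.07% lower). IM23 was lower at both temperatures, at 10.1 to 14.8 RPKM in the Bully libraries and 48.8 to 108.9 RPKM in the CantonS libraries. Its 4 Bully and 4 CantonS libraries did not overlap, as for 13.4% of all genes. IM18 went the other way at 25C (2.01, limma adjusted p = 0.0145), at 17.8 and 10.6 RPKM in Bully against 1.99 and 4.51 RPKM in CantonS. At 19C IM18 was at 6.66 and 7.27 RPKM in Bully against 12.1 and 10.3 RPKM in CantonS. Its highest 2 libraries were also Bully 25C a and CantonS 19C a.

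**Figure D4:**
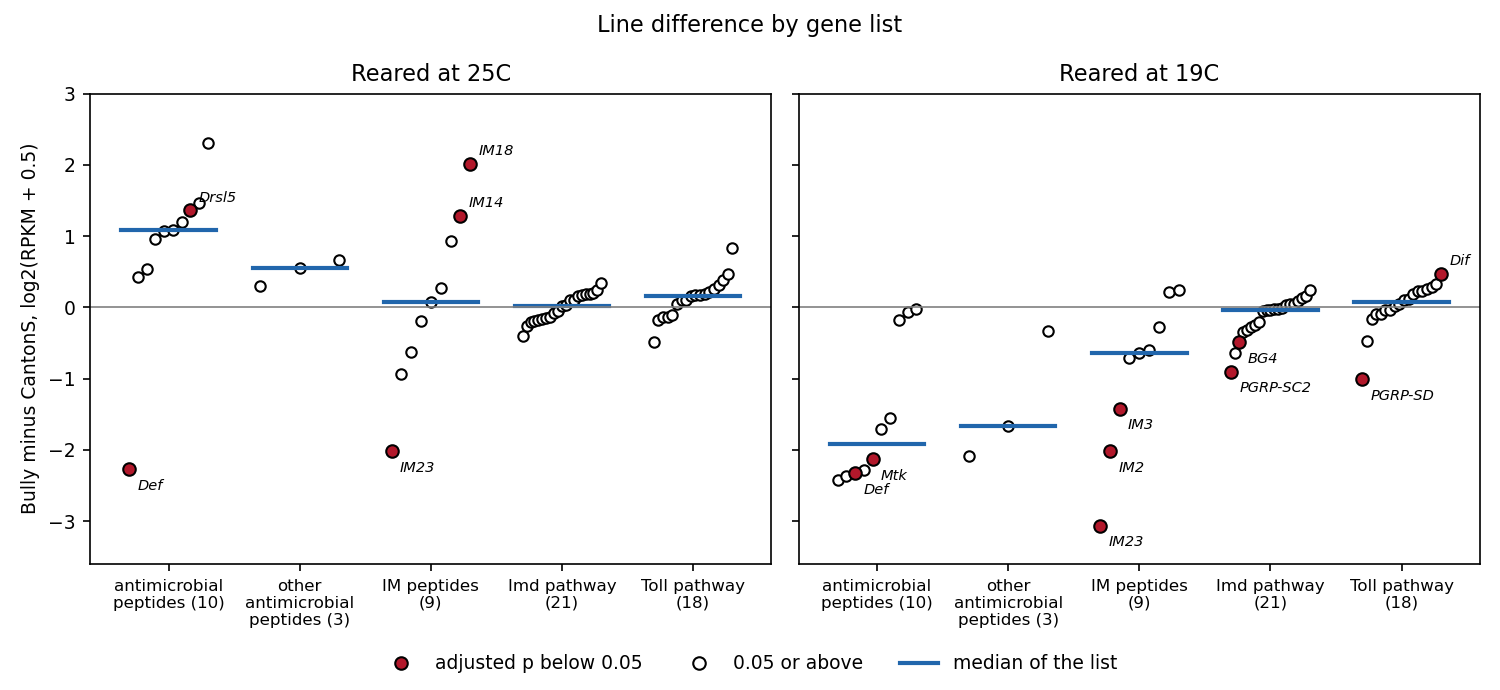
Bully minus CantonS on log2(RPKM + 0.5) for each tested gene of 5 lists at 25C (left) and 19C (right), with the number tested in brackets, filled points at an adjusted p below 0.05 and a line at the median of each list. The Imd and Toll lists lie near 0, with medians from -0.03 to 0.16, while the peptide genes spread from -2.42 to 2.31.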

How the data were processed

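The authors sequenced total RNA from fly heads in 8 libraries and deposited 1 table of RPKM per gene. Per the submitters' processing notes, TopHat2 2.0.4 and edgeR 3.8.6 were used and the builds dm3 and BDGP5 are named; the counting and any rescaling are not given in the sources used here. The reference annotation is of another build, so no coordinates are given, and no sequences were used. The members and lists were chosen with earlier results of these data known.

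From the RPKM, limma 3.58.1 (R 4.3.3, trended variance prior) fitted a mean per group on log2(RPKM + 0.5), using the 8 libraries together and the genes averaging 1 RPKM or more. A library that is alone in its group after another is left out is assumed to vary like the rest. Alternatives changed the filter, pseudocount, scaling, prior and libraries used; leaving out both libraries that stand apart was chosen after seeing the data. There were 7 comparisons, two-sided, with Benjamini-Hochberg adjustment over the 8480 genes of each. The model was tested on simulated data. The p-values set each difference against the spread between libraries of a group, estimated over the 4 groups together and moderated by that of other genes.

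Relative library sizes came from the steps between low RPKM values. Whole reads were sought within 0.01 of a read and kept where they implied an annotated transcript length within 1 base, which held for 7 members and not for AttA, Dro and CecA1. Absolute sizes came from the 714 of 1098 genes with 1 annotated transcript that implied the commonest size. Reads are not independent molecules.

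Every member is named. Of each other list up to 4 called genes were named, plus the levels of markers and, for the 4 members with the widest range of group means, the 3 genes closest in profile. Rel, pirk, PGRP-SB1, ben, eff and Uev1A were chosen after their values were seen. Of the list symbols, all were matched, some through older names.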

Additional observations from a re-analysis of the deposited data

Results flagged for a closer look

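Within the 4 libraries of each line, a library was singled out where its gap to the nearest other, divided by the whole range, exceeded Dixon's critical value for 4 samples (0.829). Of 20 such tests (10 genes in 2 lines) 11 did so, and the genes are not independent of each other. The ratio was taken on RPKM, not on the log2 scale of the limma tests. Its critical value assumes normal values of a single group, so no chance rate can be set beside this count. In all 11 the library was the highest of its line.

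Bully 25C a stood apart among the Bully libraries in 7 genes. The ratio was 0.972 for Dpt, 0.965 for DptB, 0.955 for CecA1 and 0.951 for AttC. It was 0.926 for Dro, 0.893 for AttA and 0.845 for Mtk. CantonS 19C a stood apart among the CantonS libraries in 4 genes, with a ratio of 0.932 for Dpt, 0.89 for DptB, 0.843 for CecA1 and 0.835 for AttC. Each set of 4 libraries spans both rearing temperatures.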

How the results depend on the processing

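No paired analysis was possible because the columns carry no replicate numbers. With 2 libraries a group, the smallest library (47.6 M) and low reads limit precision. The stricter filter (5 RPKM) could not test Def, Drs, Mtk and Dro. Rescaling by the median of ratios lowered CantonS 19C b by 0.15 (log2), the other 7 shifting by less than 0.1. Causes of changes were not tested.

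Members called at 25C (2) numbered 1 with the stricter filter or no filter and 0 without both libraries that stand apart (an alternative chosen after seeing the data). At 19C (2) they numbered 0 with the stricter filter, 1 with no filter or a robust prior and 4 without both. Averaged over temperatures (1) they numbered 0 with the stricter filter, 2 with rescaling or quantile normalization and 3 without both. Between temperatures in CantonS (1) they numbered 0 with only the groups compared, rescaling, no filter, quantile normalization or without both. With 1 library left out, members called ranged over 1 to 3 (25C), 1 to 4 (19C), 1 to 2 (line average), 0 to 1 (temperature in CantonS and in Bully) and 0 to 2 (interaction).

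All genes called at 25C (257) numbered 156 with the stricter filter, 166 with only the groups compared and 117 without both. At 19C (976) they numbered 1562 without both, and for the line average (745) 467 with the stricter filter. In CantonS between temperatures (544) they numbered 4 with only the groups compared, 0 with rescaling, 2 with no filter, 17 with quantile normalization and 1609 without both. In Bully (2) they numbered 49 with no filter and 1 with quantile normalization or without both. For the temperature average (7) they numbered 4 with rescaling or pseudocount 0.1, 13 with no filter, 3 with quantile normalization and 2 without both. The interaction (0) called 1 with no filter. With 1 library left out, the ranges were 77 to 398 (25C), 145 to 1996 (19C), 350 to 1171 (line average), 0 to 2261 (temperature in CantonS), 0 to 4 (in Bully), 0 to 312 (temperature average) and 0 to 903 (interaction). The highest counts at 19C, in CantonS, for both averages and for the interaction came without CantonS 19C a.

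Directions turned as follows. Without both libraries, the line difference at 25C was -0.65 in AttC, -1.49 in CecA1, -1.31 in Dpt, -1.21 in DptB and -0.57 in Mtk, and that at 19C 0.24 in AttA. The temperature difference in Bully was then -0.032 in AttA, -0.58 in AttC, -0.68 in CecA1, -0.46 in Dpt and -0.58 in DptB. The interaction was then -0.27 in AttC, -0.073 in CecA1, -0.21 in Def, -0.22 in Dpt and -0.092 in DptB. With rescaling and quantile normalization the interaction of Def was -0.0705 and -0.074, and the difference at 19C was 0.013 and 0.0059 in AttA and 0.056 and 0.18 in Drsl5.

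With 1 library left out, the line difference at 25C ranged from -0.65 to 3.04 in AttC, -1.49 to 2.57 in CecA1, -1.31 to 3.49 in Dpt, -1.21 to 3.12 in DptB and -0.57 to 1.41 in Mtk. At 19C it ranged from -0.40 to 0.27 in AttA, -0.72 to 0.37 in Drs and -0.24 to 0.18 in Drsl5. The temperature difference in Bully ranged from -0.032 to 2.37 in AttA, -0.58 to 3.11 in AttC, -0.68 to 3.38 in CecA1, -0.46 to 4.34 in Dpt, -0.58 to 3.74 in DptB and -0.12 to 0.98 in Drs. For Def the temperature difference in CantonS ranged from -0.39 to 0.51 and the interaction from -0.39 to 0.51.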

Other observations

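Some genes outside the lists also differed between the libraries of a group, and they were chosen after their values were seen. Hsp70Bc, a heat shock chaperone gene, was at 25.2 RPKM in Bully 25C a and 32.4 RPKM in Bully 19C b, and at 1.69 to 4.74 RPKM elsewhere. The odorant-binding protein gene Obp83a was at 0.298 RPKM in Bully 25C a against 3.84 in b, and at 1.75 RPKM in CantonS 19C a against 10.3 in b. Os-C, an antennal gene, was at 0.161 against 2.57 RPKM and at 0.933 against 12.2 RPKM in the same pairs. The relation of these genes to the peptide transcripts was not tested.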
